A study of Mus musculus with 9 samples.

Results

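The mitochondrial ribosomal protein genes were taken as every entry of the deposited table whose symbol starts with Mrpl or Mrps followed by a digit. This gave 77 genes of the 23415 in the table, 48 of the large subunit (Mrpl) and 29 of the small subunit (Mrps). All 77 carried the symbol of a protein-coding gene in the mouse GRCm38 annotation, and they lay on 17 chromosomes, with the largest number, 10, on chromosome 11. RNA was sequenced from colonic CD4+ T cells in transfer colitis, a model in which naive T cells given to mice without lymphocytes of their own inflame the large intestine. The question of the comparison was how the transcripts of colitogenic T cells differ when the cells lack CD160, an immunoglobulin-family receptor of lymphocytes.

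The knockout group held 4 libraries from transfers of naive CD4+CD25-CD45RBhigh T cells of CD160 knockout mice. The control group held 5 libraries from transfers of the same population of wildtype littermates. All recipients were Rag1-/- mice, which make no T or B cells, and each library was made at peak disease from 5000 CD4+ cells sorted out of colon lamina propria. The labels give no age, sex or targeted exon, and they do not say whether each library comes from a separate recipient, so that p-values measure only the spread between these libraries.

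Mitochondria have ribosomes of their own, which translate the few respiratory chain proteins encoded by mitochondrial DNA. The RNA of these ribosomes is made in the organelle, whereas all of their proteins are encoded in the nucleus, made in the cytosol and imported. Mammalian mitoribosomes have lost part of the RNA of their bacterial ancestors and gained proteins, so that some subunits have bacterial counterparts and others are specific to mitochondria. Activated T cells are known to build mitochondria and raise mitochondrial translation when they divide.

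The values were TPM, transcript abundances corrected for transcript length and scaled to the same total in every library, so that levels of different genes can be set side by side. The depth behind them is unknown. Cd160 stood at 5.44 to 18.8 TPM in the knockout and 31.8 to 212.4 TPM in the control libraries. T cell markers (7 genes, among them Cd4, Cd3e and Lck) summed to 3707 to 4696 TPM in the knockout libraries, 1716 TPM in control replicate 1 and 4559 to 5298 TPM in the other controls. Without control replicate 1, 7 of 7 had differences below 0 and 0 were called. Control replicate 1 stood apart: it had 7308 genes at 1 TPM or more, against 11088 to 11711 in the others, and genes with no transcript longer than 1000 bp made up 63.7% of its TPM, where the other libraries had 28.3% to 33.4%. Macrophage markers (10 genes, among them Lyz2, C1qa and Csf1r) summed to 8509 to 15240 TPM in the knockout libraries, 1004 TPM in control replicate 1 and 2353 to 9424 TPM in the other controls; 10 of 10 were higher in the knockout group and 0 were called. Results are given with all 9 libraries and with the 8 that leave out control replicate 1.

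Every mitoribosomal gene was detected in every library. Averaged over the 8 libraries without control replicate 1, levels ran from 10.3 TPM for Mrpl17 to 495.2 TPM for Mrpl33, a 48.2-fold range among proteins that mostly occur as a single copy in the finished ribosome. The median level was 56.8 TPM for large subunit genes and 65.5 TPM for small subunit genes. In all, 21 genes averaged 100 TPM or more and 10 averaged under 20 TPM.

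The most abundant large subunit transcripts were those of Mrpl33, a small protein with a bacterial counterpart, and Mrpl52, a protein specific to mitochondria. Mrpl33 lies on chromosome 5 (31596935 to 31664384, plus strand, GRCm38, as for all positions given here). Knockout replicates 1 to 4 had 394.8, 500.0, 450.1 and 447.6 TPM of it, and control replicates 1 to 5 had 816.5, 555.1, 488.6, 618.5 and 507.0 TPM. For Mrpl52 the knockout libraries had 353.5, 321.0, 365.1 and 377.4 TPM and the controls 1003.9, 358.2, 337.8, 366.9 and 360.8 TPM. For both genes control replicate 1 was the highest library, and for Mrpl52 the remaining libraries of both groups overlapped. Mrpl23, a protein at the exit of the peptide tunnel, averaged 191.8 TPM over the 8 libraries and Mrpl42 averaged 188.1 TPM.

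In the small subunit, Mrps21 was the most abundant transcript, with a mean of 338.6 TPM over the same 8 libraries, followed by Mrps18c at 203.0, Mrps16 at 202.5 and Mrps24 at 137.6 TPM. Mrps21, Mrps18c and Mrps16 have bacterial counterparts. The lowest levels were those of Mrps25 at 14.4 TPM and Mrps2 at 16.6 TPM in the small subunit, and of Mrpl17 and Mrpl1 at 10.3 and 10.7 TPM in the large subunit. These genes were picked within each subunit. The highest and the lowest of all 77 members, Mrpl33 and Mrpl17, were both of the large subunit. Mean levels spanned a 48.2-fold range in the large and a 23.5-fold range in the small subunit.

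**Figure D1:**
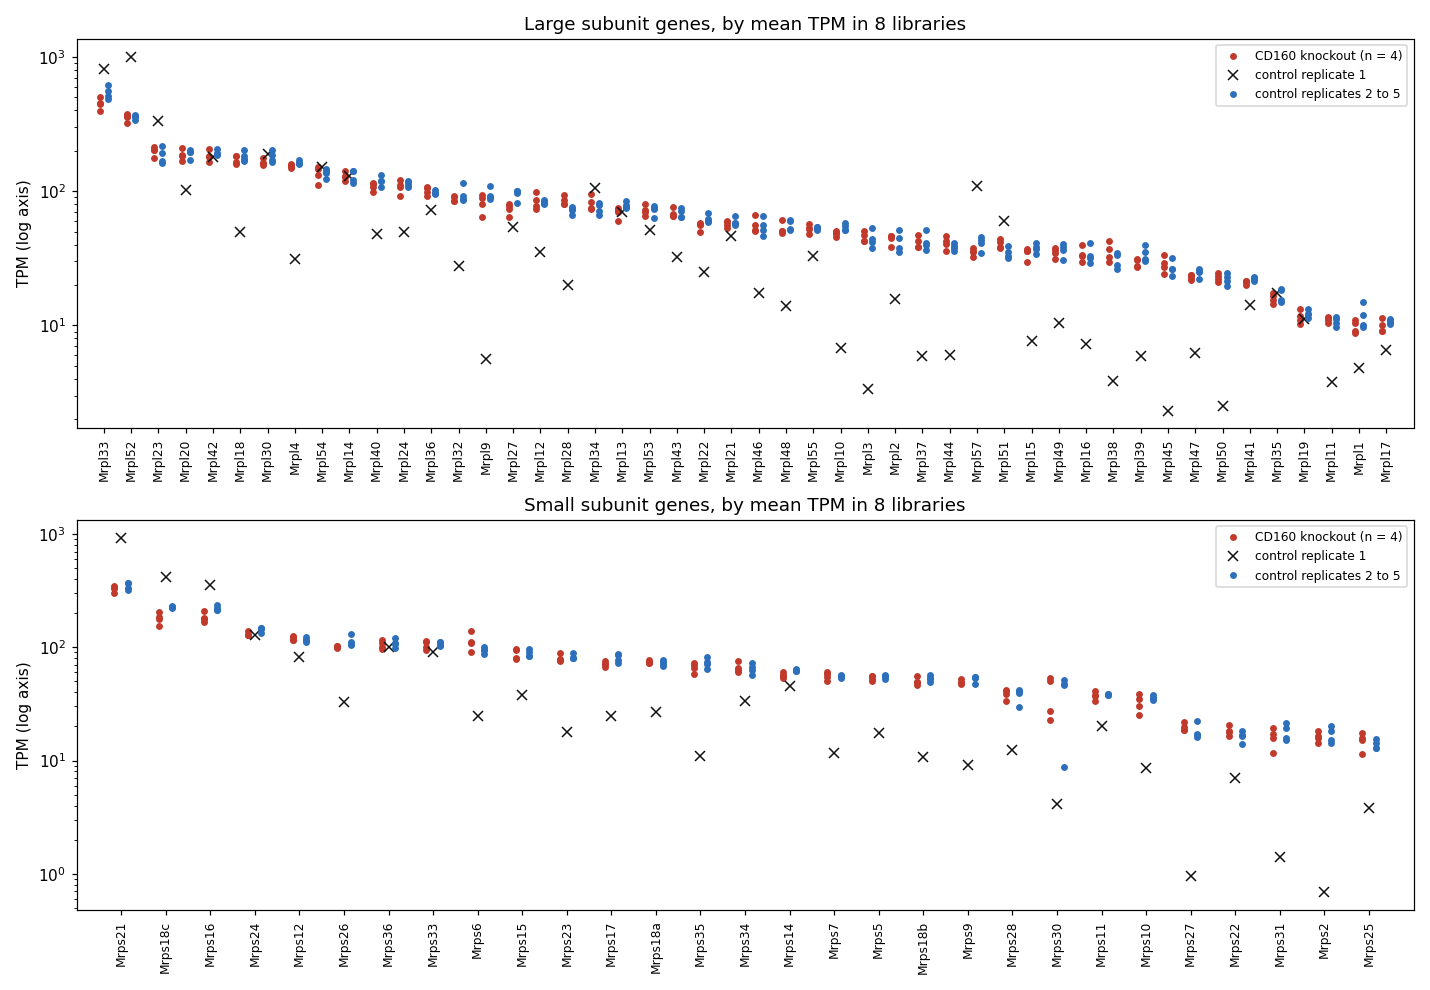
TPM on a log axis for each of the 48 large and 29 small subunit genes, ordered by their mean in 8 libraries; points are single libraries and crosses are control replicate 1. The libraries of both groups lie close together for nearly every gene, while control replicate 1 lies below all of them for 59 genes and above all of them for 10.

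Paralogs and proteins with a special place differed in level too. Mammals have 3 paralogs of bacterial S18, of which Mrps18c takes the bacterial position, Mrps18b lies elsewhere in the small subunit and Mrps18a has been found in the large subunit. Their means were 203.0, 51.5 and 73.6 TPM. The stalk that recruits translation factors is built by Mrpl10, Mrpl11 and Mrpl12, with means of 51.2, 10.9 and 83.3 TPM. Mrpl12 is the stalk protein present in several copies and is also known to bind the mitochondrial RNA polymerase. Mrpl45, which holds the ribosome at the inner membrane, averaged 27.7 TPM, and Mrps12, a protein of the decoding centre, averaged 118.3 TPM. Mrps36, named as a ribosomal protein and later found in the oxoglutarate dehydrogenase complex, averaged 107.1 TPM.

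The levels were steady between libraries. The coefficient of variation over the 8 libraries had a median of 9.29% among the 77 genes, and 47 of them were under 10%. Among all 6276 tested genes in the same range of mean levels the median was 15.2%, with quartiles of 10.6% and 22.7%. Of the mitoribosomal genes, 48 lay below the lower quartile and 6 above the median. The sets were not matched for level within that range. The lowest coefficients among the 77 genes were 3.68% for Mrps12, 4.25% for Mrpl4, 4.28% for Mrps5 and 4.30% for Mrps18a. Mrps5, whose bacterial counterpart helps keep decoding accurate, stood between 49.97 and 55.6 TPM in the knockout libraries and between 52.5 and 56.4 TPM in control replicates 2 to 5.

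Mrps30 was the exception, with a coefficient of variation of 43.4%, against 18.5% for the next gene, Mrpl1. Mrps30 (chromosome 13, 118378381 to 118387252, minus strand) has been placed in the large subunit by structures of the mammalian mitoribosome, despite its name. Knockout replicates 1 to 4 had 53.9, 50.5, 22.6 and 27.1 TPM of Mrps30, and control replicates 1 to 5 had 4.12, 8.70, 51.2, 46.5 and 47.7 TPM. The low libraries were thus found in both groups, and the group means of 38.5 ± 15.9 TPM (SD, n = 4) and 38.5 ± 20.0 TPM (SD, n = 4, control replicates 2 to 5) were alike. Without control replicate 1 the log2 difference (SE) was 0.17 (0.55), and it ranged from -0.42 to 0.39 over the processing alternatives of those 8 libraries. In the annotation, 623 exonic bases of Mrps30 overlap a gene on the other strand, B430218F22Rik. Within these bases, reads of the 2 genes cannot be told apart without strand. No level of B430218F22Rik is among the deposited values.

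Summed over all members, mitoribosomal transcripts made up 0.635% ± 0.00898 of the TPM in the knockout libraries and 0.669% ± 0.00679 in control replicates 2 to 5 (SD, n = 4 each). The sums were 6406, 6440, 6255 and 6287 TPM in knockout replicates 1 to 4, and 6451, 6766, 6605, 6677 and 6716 TPM in control replicates 1 to 5. Every knockout library was below every control library, control replicate 1 included, although the margin to that library was small. The sum of control replicate 1 had a different make-up, with 59 of the 77 genes below all 8 other libraries and 10 above. Mrpl52 and Mrps21 alone stood at 1003.9 and 921.0 TPM there. Its sum is therefore not counted as a further control with the same result. The difference between the means was -5.15% relative to control replicates 2 to 5. Mrpl33, Mrps18c and Mrps16 had the largest negative differences in mean TPM, equal to 51.7% of this net difference, in which members with higher and lower means offset each other. Leaving out these 3 genes, which were chosen by those differences, so that the difference had to shrink, the sums of the other 74 overlapped, with 5434 to 5648 TPM in the knockout libraries and 5618 to 5761 TPM in control replicates 2 to 5, and the difference was -2.92%. TPM are shares of a library, and the share taken by short transcripts moved the same way, at 28.3% to 30.2% in the knockout libraries and 31.5% to 33.4% in control replicates 2 to 5. Macrophage marker sums, given above, moved the opposite way, except that control replicate 2, with 9424 TPM of these markers, had the highest mitoribosomal sum. The T cell marker sum moved with the mitoribosomal sum, at 4138 ± 410.4 TPM in the knockout libraries and 4981 ± 335.9 TPM in control replicates 2 to 5 (SD, n = 4 each), with overlapping ranges. The part of short transcripts and of either marker list in the result was not tested, and in sorted cells fewer T cells and less RNA per T cell cannot be told apart.

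**Figure D2:**
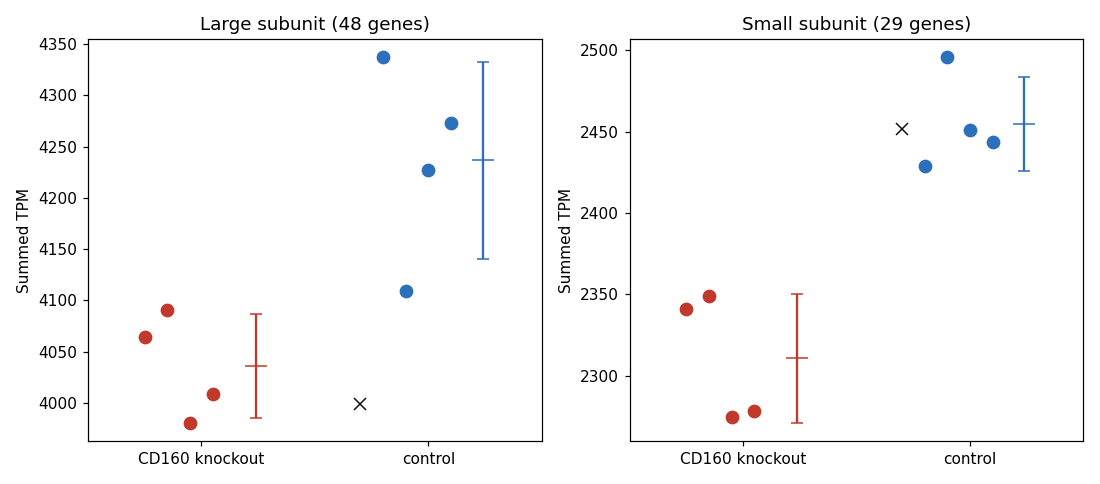
Summed TPM of the 48 large (left) and 29 small (right) subunit genes in each library, with the axes starting above 0; circles are libraries, crosses are control replicate 1, and bars are the mean ± SD of the 4 knockout libraries and of control replicates 2 to 5. The small subunit sums do not overlap between the groups, whereas the large subunit sum of control replicate 1 falls within the knockout range.

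The large and small subunits moved alike. The large subunit sum was 4036 ± 50.5 TPM in the knockout and 4237 ± 96.0 TPM in control replicates 2 to 5, and the small subunit sum was 2311 ± 39.8 and 2455 ± 28.8 TPM (SD, n = 4 each). The ratio of the large to the small subunit sum was 1.74, 1.74, 1.75 and 1.76 in knockout replicates 1 to 4. It was 1.79, 1.65, 1.73 and 1.75 in control replicates 2 to 5, around the knockout values, and 1.63 in control replicate 1. On the log2(TPM + 1) scale the mean of the large subunit genes minus that of the small subunit genes lay between -0.097 and -0.015 in the knockout and between -0.12 and 0.060 in the same 4 control libraries. In control replicate 1 it was 0.20, outside both ranges. With Mrps30 and Mrps18a counted in the large subunit and Mrps36 left out, the ratio of sums was 1.97 to 1.99 in the knockout libraries, 1.88 to 1.99 in control replicates 2 to 5 and 1.74 in control replicate 1.

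Gene by gene, knockout and control were compared with limma on log2(TPM + 1), fitted on the whole table with Benjamini-Hochberg adjustment over all tested genes. With all 9 libraries, 0 of 77 mitoribosomal genes passed an adjusted p of 0.05, where 0.0174% of the 11495 tested genes did, and 0 had an unadjusted p under 0.05, where 6.39% of all genes did (0.618% lower and 5.78% higher). Their log2 differences ran from -0.51 to 0.78 with a median of 0.22, while the median of all genes was 0.46, and 59 of 77 were above 0, as were 86.7% of all genes. The large subunit median was 0.15 and the small subunit median 0.28. With Mrps30 and Mrps18a counted in the large subunit and Mrps36 left out, the medians were 0.19 and 0.25. These positive medians depended on control replicate 1.

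Without control replicate 1 the differences were small. In the 8 libraries 0 of 77 genes passed the adjusted threshold, where 0.0262% of the 11457 tested genes did. The log2 differences ran from -0.36 to 0.24 with a median of -0.049, close to the median of -0.014 over all genes. The medians were -0.056 for the large and -0.048 for the small subunit. With Mrps30 and Mrps18a counted in the large subunit and Mrps36 left out, they were -0.044 and -0.052, in the reverse order. Of the 77 genes 51 lay below 0, 32 of 48 in the large and 19 of 29 in the small subunit, as did 52.5% of all tested genes. At an unadjusted p under 0.05 there were 5 genes, 6.49% of the members against 12.8% of all genes, with 4 lower (4.41% of all genes) and 1 higher (8.44% of all genes).

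**Figure D3:**
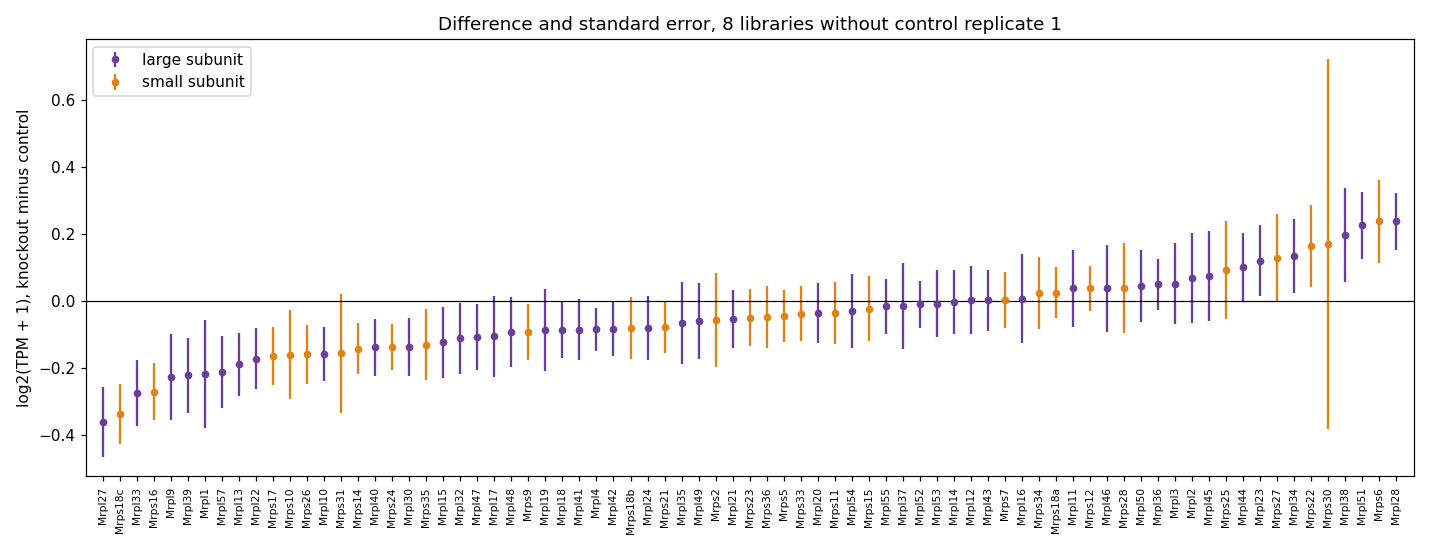
Log2 difference in log2(TPM + 1), knockout minus control, for the 77 genes in the 8 libraries without control replicate 1; bars are standard errors from limma and colours mark the subunit. Members of both subunits are spread over the whole range from -0.36 to 0.24, and Mrps30 has by far the widest bar.

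Library values of the groups failed to overlap for 9 of the 77 genes in the 8 libraries, 8 lower and 1 higher in the knockout, where 7.02% of all tested genes failed to overlap, 3.01% lower and 4.01% higher. The lower genes were Mrpl10, Mrpl22, Mrpl27 and Mrpl41 of the large subunit and Mrps14, Mrps16, Mrps18c and Mrps26 of the small subunit; Mrpl22, Mrps14 and Mrps26 are named because of these values. The higher gene was Mrpl28. With control replicate 1 included, 2 genes were lower without overlap, Mrps16 and Mrps18c, and Mrpl28 was higher, where 4.93% of all genes failed to overlap, 1.05% lower and 3.88% higher.

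Mrps18c had the smallest p of the 77 genes without control replicate 1. It lies on chromosome 5 (100798627 to 100804471, plus strand). Knockout replicates 1 to 4 had 153.7, 184.2, 204.5 and 176.7 TPM, control replicate 1 had 413.1 TPM, and the remaining controls had 229.1, 226.2, 227.3 and 222.1 TPM. All knockout libraries were below all control libraries, and the 4 controls other than replicate 1 lay within a narrow band. The means were 179.8 ± 21.0 and 226.2 ± 2.96 TPM (SD, n = 4 each, without control replicate 1), which gave a log2 difference (SE) of -0.34 (0.090) and a limma adjusted p of 0.18. All 9 libraries gave -0.51 and a limma adjusted p of 0.745. Another annotated gene, Gm43511, shares 250 exonic bases with Mrps18c on the same strand.

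Mrps16, a small subunit protein near the platform that is conserved from bacteria, also did not overlap between groups, with or without control replicate 1. Its gene is on chromosome 14 (20389304 to 20393634, minus strand). The knockout libraries had 209.0, 177.8, 166.9 and 181.0 TPM and the controls 353.8, 221.2, 212.0, 213.7 and 238.0 TPM. Knockout replicate 1, the highest of its group, was just below the lowest control library. Control replicate 1 was the highest library for Mrps16 and Mrps18c, both among the 10 members for which it was above all 8 others. The value of that library therefore adds no separate support for either gene. Without control replicate 1 the log2 difference (SE) was -0.27 (0.085), limma adjusted p 0.232. Including it gave -0.41 and a limma adjusted p of 0.745.

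Mrpl27, which reaches with its bacterial counterpart towards the peptidyl transferase centre, had the largest negative log2 difference of the 77 genes without control replicate 1, but not with it. It is encoded on chromosome 11 (94653767 to 94660089, plus strand). The knockout libraries had 63.8, 73.4, 79.7 and 77.2 TPM and the controls 54.4, 100.9, 99.8, 81.5 and 96.3 TPM. Control replicate 1 was thus the lowest library of all, while control replicate 4 was only just above the highest knockout library. The log2 difference (SE) without that library was -0.36 (0.10), limma adjusted p 0.198. Including it gave -0.20 and a limma adjusted p of 0.76. Mrpl27 shares 75 exonic bases with Eme1 on the other strand, which averaged 4.402 TPM.

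Mrpl33 was the fourth gene with a lower level at an unadjusted p under 0.05. Without control replicate 1 its log2 difference (SE) was -0.27 (0.099), limma adjusted p 0.291. Knockout replicate 2, at 500.0 TPM, overlapped control replicate 3, at 488.6 TPM. It shares 261 exonic bases with another gene on its own strand, Gm43809. The next largest negative difference was that of Mrpl9, at -0.23 with an adjusted p of 0.52 in limma.

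Mrpl28, a large subunit protein with a bacterial counterpart, was the gene with higher values in every knockout library. It lies on chromosome 17 (26123500 to 26126613, plus strand). The knockout libraries had 94.2, 80.5, 86.5 and 80.0 TPM and the controls 20.0, 76.6, 72.9, 72.0 and 66.8 TPM. The groups did not overlap, although knockout replicate 4 and control replicate 2 were close. The log2 difference (SE) was 0.24 (0.085) without control replicate 1, limma adjusted p 0.29. With that library it was 0.60, limma adjusted p 0.745, and it fell to -0.016 under median-of-ratios scaling of all 9 libraries. Over the processing alternatives without control replicate 1 it ranged from 0.15 to 0.27. Mrps6, Mrpl51 and Mrpl38 had log2 differences of 0.24, 0.23 and 0.20 without that library, with adjusted p values of 0.48, 0.391 and 0.624 in limma, and their groups overlapped. For Mrps6 knockout replicate 2, at 139.8 TPM, was well above the other knockout libraries, which stood at 91.3 to 110.2 TPM, and controls 2 to 5 stood at 87.9 to 100.5 TPM. Mrps6 shares exonic bases on its own strand with Slc5a3, which averaged 5.60 TPM.

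**Figure D4:**
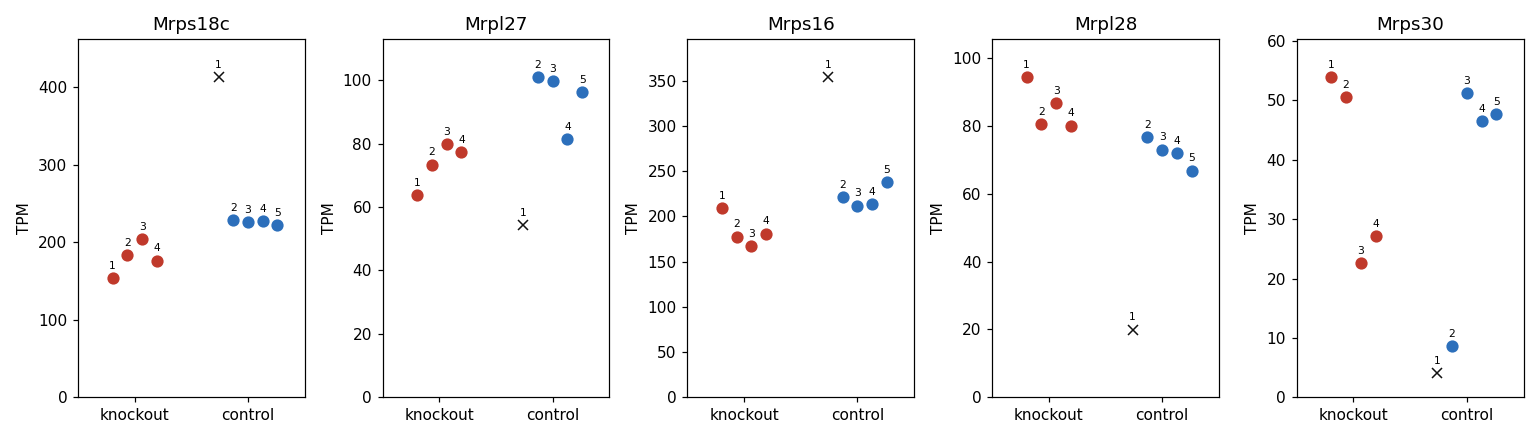
TPM of Mrps18c, Mrpl27, Mrps16, Mrpl28 and Mrps30 in each library, numbered by replicate; crosses are control replicate 1 and all axes start at 0. Mrps18c and Mrps16 are lower and Mrpl28 is higher than all controls in each knockout library, Mrpl27 is lower than control replicates 2 to 5 alone, and the low Mrps30 libraries fall in both groups.

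Of the proteins with a special place, Mrps18c and Mrps30 are described above, and the others are given here. No comparison is drawn with genes that were named for their differences or p values. Without control replicate 1 the log2 differences were 0.0023 for Mrpl12, 0.038 for Mrpl11, -0.16 for Mrpl10, 0.075 for Mrpl45, -0.085 for Mrpl41, 0.038 for Mrps12, -0.044 for Mrps5, 0.13 for Mrps27, -0.13 for Mrps35 and -0.048 for Mrps36, with adjusted p values from 0.479 for Mrpl10 to 0.997 for Mrpl12 in limma. The S18 paralogs other than Mrps18c had 0.026 for Mrps18a and -0.080 for Mrps18b. The abundant transcripts Mrpl52 and Mrps21 had -0.0086 and -0.078. Mrpl41 is a case in which small values did not overlap: it stood at 19.9 to 21.4 TPM in the knockout and 21.5 to 22.9 TPM in control replicates 2 to 5, and at 14.1 TPM in control replicate 1.

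Promoter sequences from RefSeq (GRCm38.p6, 250 bases before and 50 after each annotated start) were found for 68 of the 77 genes, in 74 windows. Factors known to drive nuclear genes for mitochondrial proteins include the ETS-family factor GABP, NRF1 and YY1. The ETS letters CCGGAAG, searched on both strands, were in 33.8% of the mitoribosomal windows and 8.86% of all 32851 windows. The NRF1 letters, GCGCA and GCGC with 1 base of any kind between them, were in 17.6% against 4.6%, and the YY1 letters AAGATGGC in 16.2% against 2.75%. At least 1 of the 3 motifs was in 42 of 74 windows, 56.8%, against 14.7% of all windows. The set of all windows was not matched to the mitoribosomal windows for base composition or expression. The TATA box letters TATAAA were in 6.76% against 13.6%. The ETS share was 29.8% for large and 40.7% for small subunit windows and the NRF1 share 21.3% and 11.1%. A match is a description of these letters and not evidence of binding. Windows of the 5 genes drawn by library, which carry the lower, higher and most variable values, and of Mrpl9, which holds the NRF1 letters, are shown up to the annotated GENCODE start, 5′ to 3′, with motif matches in capitals.
Mrps18c (chr5:100798509-100798626, plus strand): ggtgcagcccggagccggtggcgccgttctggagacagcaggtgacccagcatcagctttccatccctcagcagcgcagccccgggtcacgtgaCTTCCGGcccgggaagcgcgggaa
Mrpl27 (chr11:94653541-94653766, plus strand): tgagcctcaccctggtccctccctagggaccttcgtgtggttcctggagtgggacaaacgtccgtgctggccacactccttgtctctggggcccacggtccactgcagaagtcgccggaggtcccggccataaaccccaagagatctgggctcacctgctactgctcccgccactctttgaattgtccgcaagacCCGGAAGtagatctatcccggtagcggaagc
Mrps16 (chr14:20393635-20393884, minus strand): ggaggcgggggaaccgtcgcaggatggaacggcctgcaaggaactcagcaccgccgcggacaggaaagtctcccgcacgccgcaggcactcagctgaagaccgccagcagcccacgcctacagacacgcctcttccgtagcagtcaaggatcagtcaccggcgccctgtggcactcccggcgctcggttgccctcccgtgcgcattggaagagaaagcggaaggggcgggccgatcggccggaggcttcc
Mrpl9 (chr3:94443086-94443317, plus strand): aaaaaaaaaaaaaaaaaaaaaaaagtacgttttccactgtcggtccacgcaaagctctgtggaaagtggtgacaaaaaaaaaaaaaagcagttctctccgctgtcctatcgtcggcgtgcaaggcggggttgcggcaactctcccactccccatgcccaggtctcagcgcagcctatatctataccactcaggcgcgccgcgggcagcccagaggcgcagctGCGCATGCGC
Mrpl28 (chr17:26123253-26123499, plus strand): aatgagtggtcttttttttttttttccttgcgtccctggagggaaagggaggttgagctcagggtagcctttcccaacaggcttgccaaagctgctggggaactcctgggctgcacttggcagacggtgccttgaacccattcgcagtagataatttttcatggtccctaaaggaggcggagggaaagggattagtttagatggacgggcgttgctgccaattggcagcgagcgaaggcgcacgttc
Mrps30 (chr13:118387253-118387502, minus strand): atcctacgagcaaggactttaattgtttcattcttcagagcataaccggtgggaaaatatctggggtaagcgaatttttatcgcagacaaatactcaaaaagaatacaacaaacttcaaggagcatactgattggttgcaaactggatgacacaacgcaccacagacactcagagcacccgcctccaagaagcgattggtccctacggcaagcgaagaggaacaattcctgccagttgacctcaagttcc
Among these, Mrps18c and Mrpl27 hold the ETS letters, Mrpl9 the NRF1 letters, and Mrps16, Mrpl28 and Mrps30 hold none of the 3 motifs in the stretch shown.

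Neighbouring genes were part of the annotation of several members. Of the 77 genes 32 had exons that overlap another annotated gene, 27 of them on the opposite strand and 8 on the same strand. Mrpl46 and Mrps11, of different subunits, start head to head on chromosome 7 (78775236 to 78783531 on the minus strand and 78783119 to 78792989 on the plus strand) and share 173 exonic bases. Their log2 differences without control replicate 1 were 0.039 and -0.035. Pseudogenes are annotated for Mrpl23, Mrpl48 and Mrps36, so that the values of these genes are less certain.

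Control replicate 1 differed from the other libraries in nearly every member, in both directions. It was below all 8 other libraries for 59 of 77 genes and above all of them for 10: Mrpl23, Mrpl33, Mrpl34, Mrpl51, Mrpl52, Mrpl54, Mrpl57, Mrps16, Mrps18c and Mrps21. Its ratio to the mean of control replicates 2 to 5 ran from 0.0407 for Mrps2 to 2.82 for Mrpl52, with a median of 0.399. Its summed mitoribosomal TPM of 6451 nevertheless lay within the range of the other libraries. The shifts differed by coding length. Among 23 genes with a coding sequence of up to 450 bp the median log2 difference from the other controls was -0.11, and 10 of them were above 0. It was -1.59 among 39 genes of over 450 and up to 900 bp and -2.61 among 15 longer genes, of which 0 were above 0.

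**Figure D5:**
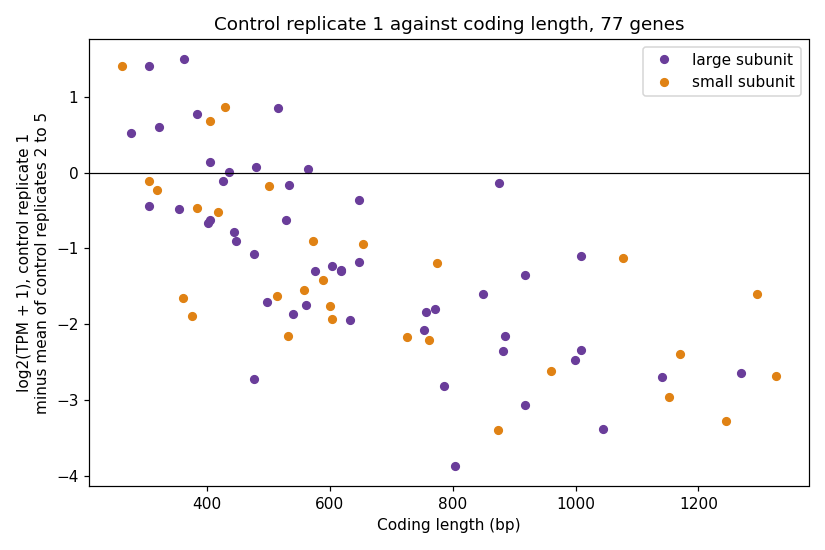
Difference in log2(TPM + 1) between control replicate 1 and the mean of control replicates 2 to 5 against coding length in bp, for 48 large and 29 small subunit genes. Genes of up to 450 bp lie between -1.883 and 1.494, on both sides of 0, and those over 900 bp lie between -3.374 and -1.104.

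Across the 77 genes Spearman's rho of this difference with coding length was -0.726, and across 10856 tested genes it was -0.198; genes of 1 library are not independent, and no test was made. With the longest annotated transcript in place of the coding length, rho was -0.285 across the 77 genes. The knockout-control difference in the other 8 libraries had rho values of 0.0887 with coding length and -0.171 with the longest transcript. Length was related to level as well, with median levels of 106.0, 58.2 and 38.5 TPM in the 3 classes of coding length over the 8 libraries.

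Genes that work with the mitoribosome were examined as lists, whose counts without control replicate 1 stand beside 52.5% of all tested genes below 0 and 3.01% lower without overlap. Of 6 subunits that carry other names (Dap3, Ptcd3, Chchd1, Aurkaip1, Gadd45gip1 and Ict1), 0 passed the adjusted threshold in either direction, and all 6 had differences below 0 without control replicate 1, with a median of -0.11. Ict1, a peptidyl-tRNA hydrolase built into the large subunit, averaged 127.3 ± 11.3 TPM in the knockout and 138.6 ± 9.21 TPM in control replicates 2 to 5 (SD, n = 4 each). Dap3, a GTP-binding protein of the small subunit, averaged 12.6 ± 1.101 and 14.2 ± 1.51 TPM.

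Of 15 translation factors 0 passed in either direction, with a median of -0.12 and 11 below 0. Mtif2, the initiation factor that brings the initiator tRNA, averaged 12.8 ± 0.71 and 17.2 ± 3.72 TPM (SD, n = 4 each), with a log2 difference of -0.38, an adjusted p of 0.361 in limma, and was the 1 of 15 whose groups did not overlap. Pdf, the deformylase of new mitochondrial proteins, had a log2 difference of 0.55 and Oxa1l, the insertase of the inner membrane, 0.17, with adjusted p values of 0.48 and 0.527 in limma.

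Of 15 tested assembly factors 0 passed, with a median of -0.033 and 10 below 0. Rpusd4, a pseudouridine synthase, Mrm1, a methyltransferase of the ribosomal RNA, and Mtg2, a GTPase of large subunit assembly, had log2 differences of -0.27, -0.31 and -0.25 with adjusted p values of 0.315, 0.35 and 0.372 in limma, and the groups did not overlap for 2 of 15, Rpusd4 and Mrm1. Of 17 mitochondrial aminoacyl-tRNA synthetases 0 passed, with a median of -0.076 and 12 below 0, among them Lars2 at -0.44. Of 13 tested genes of mitochondrial transcription and its nuclear regulators 0 passed, with a median of -0.026, 6 above and 7 below 0. Tfam, which packs and transcribes mitochondrial DNA, had -0.24. Of 18 cell cycle genes 0 passed, with a median of -0.098 and 15 below 0, Tyms being the first by p at -0.26. With all 9 libraries the medians of these lists were 0.069, 0.33, 0.53, 0.32, 0.58 and 0.55 in the order given, around the 0.46 of all genes, with 0 genes called.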

How the data were processed

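The authors deposited TPM values for 9 libraries in a single table; each column sums to about 1000000. Libraries were full-length cDNA of the SMART-Seq2 kind, read in pairs of 38 cycles, per the labels' protocols. Read trimming, alignment and quantification tools named in the submitters' processing notes were RSEM 1.2.31, Bowtie2 2.2.9 and Trimmomatic 0.32, with GRCm38; settings are not given in the sources used here. TPM keeps no depth, so counting error is unknown. Groups follow the titles. The fit used limma 3.58.1 in R 4.3.3 (eBayes with trend) on log2(TPM + 1). Genes entered it when 4 or more libraries reached 1 TPM, as all 77 members did. Differences are knockout minus control. The script was checked on data with known answers. Alternatives were pseudocounts of 0.1 and 5, no filter, a 5 TPM filter, median-of-ratios scaling, the replicate number as a block, another subunit assignment and leaving out each library. Named members were those with a special place in the ribosome, the highest and lowest levels per subunit, the 5 largest differences each way and the 5 smallest p values per fit; Mrpl4, Mrpl22, Mrps14, Mrps26, Mrpl46 and Mrps11 were added after their values were seen. Up to 3 genes were named per other list. The members and lists were chosen with earlier results of these data known. Lengths, overlaps and positions come from GENCODE M21, promoters from RefSeq. Figures used matplotlib 3.10.9 in Python 3.11.15.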

Additional observations from a re-analysis of the deposited data

Results flagged for a closer look

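Single libraries far from the rest of their group were looked for among the named genes on the log2 scale; chance alone gives this in about 1 in 20 groups. Control replicate 1 was far from the other 4 controls for 22 named genes, and over all members for 55 of 77. It was low, in TPM, for Mrpl10 (6.83), Mrpl11 (3.76), Mrpl12 (34.9), Mrpl17 (6.57), Mrpl28 (20.0), Mrpl38 (3.88), Mrpl41 (14.1), Mrpl45 (2.32) and Mrpl9 (5.57). In the small subunit it was low for Mrps12 (81.4), Mrps18a (26.6), Mrps18b (10.7), Mrps2 (0.69), Mrps25 (3.81), Mrps27 (0.95), Mrps35 (11.1), Mrps5 (17.4) and Mrps6 (24.8). It was high for Mrpl52 (1003.9), Mrps16 (353.8), Mrps18c (413.1) and Mrps21 (921.0). Its mean log2(TPM + 1) was 4.79 over the large and 4.60 over the small subunit genes, also far from the other controls.

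Among the groups of 4, 6 of 154 held such a library. Those of named genes were Mrps30 at 8.70 TPM in control replicate 2, Mrpl41 at 19.9 TPM in knockout replicate 4 and Mrps24 at 138.8 TPM in knockout replicate 3.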

How the results depend on the processing

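The count of 0 mitoribosomal genes past the adjusted threshold held in limma under every alternative run, 15 with all libraries and 14 without control replicate 1, with smallest adjusted p values of 0.18 and 0.117. With all libraries, median-of-ratios scaling moved the median of all genes from 0.46 to 0.0047. The large and small subunit medians became -0.47 and -0.34. The scaling changed the sign of 51 of 77 members, Mrpl28 to -0.016 among them. It multiplied control replicate 1 by 6.70 and the other libraries by 0.71 to 0.89, and the cause of the shifts was not tested. In the 8 libraries without control replicate 1, this scaling gave a median of -0.038 over the members and changed the sign of 3. The replicate block, run on the libraries of shared numbers, changed the sign of 14 members there. It left 1 member at an unadjusted limma p under 0.05, where the main fit had 5. Leaving out single libraries of the 8 changed the sign of 3 to 10 members. Leaving out each of all 9 libraries gave large subunit medians from -0.056 to 0.22 and small subunit medians from -0.048 to 0.37. Both were lowest when control replicate 1 was left out, which changed the sign of 35 members. In the 8 libraries these ranges were -0.079 to -0.028 and -0.066 to -0.030. Genes called over the whole table, 2 with all libraries, were 1 with a pseudocount of 5, 0 without a filter, 0 with the 5 TPM filter, and 0 to 3 with each library left out. In the 8 libraries, 3 genes became 5 with a pseudocount of 0.1, 1 without a filter, and 0 to 15 with each library left out (15 without control replicate 2, 11 without knockout replicate 1, 0 without control replicate 4 or 5). The replicate number as a block gave 0 called genes in both fits. After group means were removed, same-numbered libraries correlated at -0.14 to -0.017 over 4 pairs, and at -0.22 to 0.0011 over 3. Knockout and control libraries of different numbers correlated at -0.19 to 0.195 and at -0.22 to 0.24. So few pairs cannot decide whether libraries of the same number belong together. No depth is known.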
